A study of Mus musculus with 16 samples.

Results

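The values below describe 10 nuclear receptors of the mouse liver, taken as every probe whose gene name in the scanner output was Nr1i2 (PXR), Nr1i3 (CAR), Nr1h4 (FXR), Nr1h3 (LXRα), Ppara, Pparg, Rxra, Hnf4a, Nr5a2 (LRH-1) or Esrra (ERRα). These names carried 18 probes among the 56605 probes of the array, and 17 of them were bright enough to be used. All 10 receptors were among the 20411 genes tested. RNA came from whole livers of male C57BL/6 mice fed a normal chow (NC), recorded as 10 weeks old and fasted for 6 h before sacrifice. Conventional (Conv) mice, never given antibiotics, had been gavaged once per week for 2 weeks with reduced PBS (Conv + PBS, 6 mice), with caecal content of lean NC-fed donors (Conv + LM, 5 mice) or with that of donors made obese by a high-fat diet (Conv + OM(HFD), 5 mice). The sample labels call the first group not transplanted, while the study's methods give it the PBS vehicle. Each mouse had its own 1-colour Agilent array, and cage mates could share the exposure, since the mice were group-housed and the labels do not name the cages.

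The arrays lay on 2 slides, with 3 PBS, 2 lean-microbiota and 3 HFD-microbiota mice on the first and 3, 3 and 2 on the other. The 75th percentile of brightness was 223.1 to 323.7 per array, 51.9 to 60.1% of the spots were well above background, and no spot was saturated. Hepatocyte markers (Alb, Apoa1, Ttr, Cps1, Tat and Hal, all detected) summed to between 1988 and 2610 times the 75th percentile in every mouse, so the RNA carried the markers of its labelled tissue. Precision is bounded by the 5 or 6 mice per group, and in bulk tissue fewer cells of a type and less RNA per cell cannot be told apart.

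Nuclear receptors are transcription factors that read small lipophilic molecules. A zinc-finger domain binds DNA and a second domain binds the ligand and then exchanges corepressors for coactivators. In liver, PXR and CAR sense drugs and other foreign compounds and switch on the cytochrome P450 genes that clear them, FXR senses bile acids, LXRα senses oxysterols, and PPARα senses fatty acids and turns on their oxidation during a fast. PPARγ is the receptor of fat storage, RXRα is the common partner with which most of these receptors bind DNA, HNF4α keeps the hepatocyte programme, LRH-1 takes part in bile acid and cholesterol metabolism, and ERRα drives mitochondrial genes without a known natural ligand. Several of their ligands, above all bile acids, are altered by gut bacteria.

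Of the probe sequences, those of Hnf4a and Nr1i3 are shown because the probes of each gene lie apart and differ in brightness while following the same mice. Each probe is 60 bases long and is written 5′ to 3′ in the sense of the mRNA. The dim Hnf4a probe lies at chr2:163378302-163378361 (+ strand) on mm9, the build named in the scanner headers. Capitals mark the 3 cysteine codons (TGT or TGC) of its only reading frame without a stop codon, in the stretch that encodes the second zinc finger.
Hnf4a, second probe: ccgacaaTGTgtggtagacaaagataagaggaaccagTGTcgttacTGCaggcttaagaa
The Nr1i3 probes are shown for the span of the dimmer one. Its 60 bases cover 229 bases of genome, chr1:173144301-173144529 (+ strand), so it crosses a splice junction, and capitals mark the first ATG, from which no stop codon follows in frame up to the end of the probe. The brighter probe lies downstream at chr1:173147776-173147835 and has no capitals.
Nr1i3, second probe: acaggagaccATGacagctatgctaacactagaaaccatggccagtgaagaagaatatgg
Nr1i3, first probe: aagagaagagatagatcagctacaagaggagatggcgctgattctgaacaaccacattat

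Levels are given as the log2 of the background-corrected brightness minus the 75th percentile of the array, so that 0 is a probe brighter than 75% of the spots. The probe with the highest mean stood for a gene, as for all genes. By this measure Rxra (mean 7.78 over the 16 mice) and Hnf4a (7.47) had the brightest probes, ahead of Ppara (6.37) and Nr1h4 (5.78). Nr1h3 (4.56), Esrra (3.99) and Nr1i2 (3.60) lay in the middle, Nr5a2 (2.87) and Nr1i3 (2.70) followed, and Pparg (0.95) was the dimmest. Hnf4a and Rxra were brighter than 98.2 and 98.7% of the genes tested, and Pparg than 61.8%.

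Most of this order was the same in every mouse. Neighbours kept it in 16 of 16 mice, except that Rxra was above Hnf4a in 13 mice, Esrra above Nr1i2 in 15, and Nr5a2 above Nr1i3 in 10. Nr5a2 and Nr1i3 differed by 0.17 on average, which is less than the SD of either among mice. This is an order of probes rather than of transcripts, since the probes of 1 gene can lie far apart in brightness. Of the Rxra probes, the brighter one, at chr2:27618345-27618404, had a mean of 7.78 and the other, at chr2:27615316-27615375, a mean of -0.79, which places the same gene at either end of the list.

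**Figure D1:**
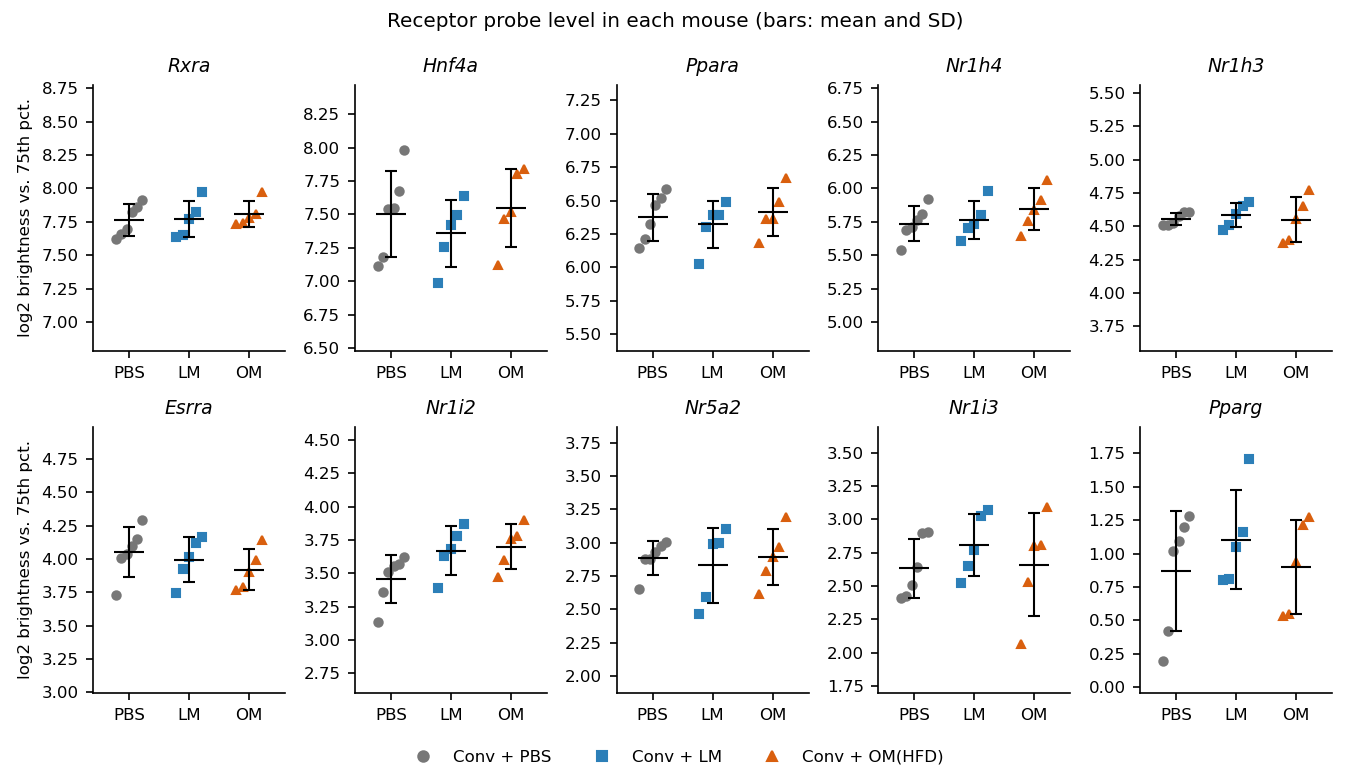
Log2 brightness relative to the 75th percentile of the array (y axis, a span of 2 in every panel) for the main probe of each receptor in Conv + PBS (circles), Conv + LM (squares) and Conv + OM(HFD) mice (triangles). Points are mice, sorted by value within a group, and bars are the mean and SD. In all 10 panels the groups overlap, and Rxra and Nr1h3 are the tightest while Pparg is the widest.

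The spread among mice was taken as the SD around the group means on the log2 scale. It was lowest for Nr1h3 (0.11, or 7.92%) and Rxra (0.12), followed by Nr1h4 (0.14), Esrra (0.17), Nr1i2 (0.18), Ppara (0.18) and Nr5a2 (0.21). It was highest for Pparg (0.40), Hnf4a (0.29) and Nr1i3 (0.29). The median over the 10 receptors was 0.18 and over all genes 0.24, and 7 of the 10 receptors were below the median of all genes. That count depended on the processing, with 8 of 10 after quantile normalization, 5 in the authors' values and 3 after normexp background correction. All genes include many dimmer than the receptors, and no count was made among genes of like brightness. Hnf4a combined one of the brightest probes with a spread greater than that of 61.7% of genes, a percentile that ranged from 49.6 after quantile normalization to 88.5 after normexp.

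**Figure D2:**
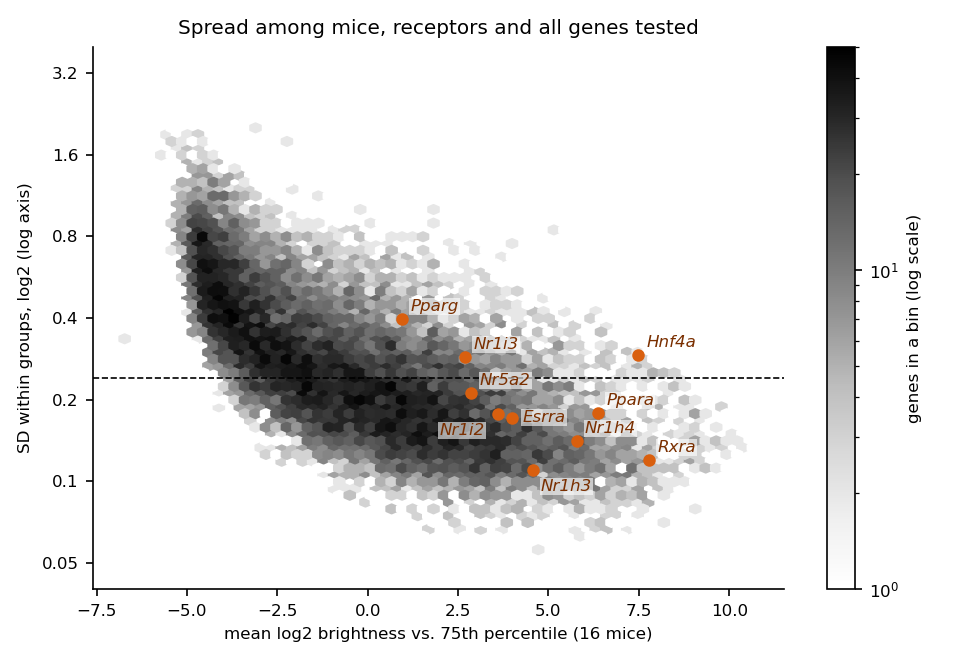
SD within groups (y axis, log2 values, logarithmic axis) against mean log2 brightness over 16 mice (x axis) for all 20411 genes tested (grey bins, darker for more genes) and the 10 receptors (orange). The dashed line is the median SD of all genes, 0.24. Hnf4a and Nr1i3 lie above that line, Pparg highest, and the other 7 receptors below it.

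Transfer of the HFD-microbiota was compared with PBS to ask what it changed in the recipient liver. Nr1i2, the receptor for foreign compounds, was the only one of 10 receptors at an unadjusted p under 0.05 in limma, and no receptor passed after adjustment over all genes. Among all genes, 3.27% had such a p in this comparison and 0 passed the adjusted threshold, so 1 receptor in 10 cannot be set apart from the background of the array. The exact permutation test gave an unadjusted p under 0.05 for 3.22% of genes and, again, for Nr1i2 alone of the receptors.

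Nr1i2 ranged from 3.13 to 3.62 in Conv + PBS mice, with a median of 3.53. It read 3.39, 3.87, 3.68, 3.78 and 3.63 in the 5 Conv + LM mice. In the 5 Conv + OM(HFD) mice it read 3.60, 3.76, 3.47, 3.898 and 3.78. The groups overlapped, although 4 of the 5 mice of each transferred group were above the Conv + PBS median. The HFD-microbiota group exceeded the PBS group by 0.24 ± 0.11 (log2, SE), or 18.4% with a 95% confidence interval of 0.636 to 39.3% (limma p = 0.0427, adjusted p = 0.9999; exact permutation p = 0.0498). With the lean microbiota the excess over PBS was 0.21 ± 0.11 (limma p = 0.0711, adjusted p = 0.997; exact permutation p = 0.0823), and between the transferred groups 0.03 ± 0.12 (limma p = 0.799, adjusted p = 0.9995; exact permutation p = 0.794). The lowest value of all was Conv + PBS mouse 1 (3.13), and without that mouse the difference with the HFD-microbiota was 0.18 and no longer passed at an unadjusted p in limma. Leaving out 1 mouse at a time gave 0.18 to 0.30 and kept the unadjusted p under 0.05 in 8 of 16 cases. It was lost without Conv + PBS mouse 1, 2 or 3, Conv + LM mouse 15 or 17, or Conv + OM(HFD) mouse 26, 29 or 30.

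The other 9 receptors did not pass in any of the comparisons, in limma or in the exact test. With the HFD-microbiota, their differences from Conv + PBS mice ran from -0.13 (Esrra) to 0.11 (Nr1h4), and with the lean microbiota from -0.15 (Hnf4a) to 0.24 (Pparg). The background of genes at an unadjusted limma p under 0.05 was 3.95% for the lean microbiota and 2.71% between the transferred groups, in which 0 of 10 receptors passed. No receptor had groups without overlap, which 0.24%, 0.279% and 0.465% of genes had in the 3 comparisons. The median size of the difference was 0.04, 0.06 and 0.08 for the receptors and 0.09, 0.10 and 0.10 for all genes. The receptors were brighter than 61.8% (Pparg) to 98.7% (Rxra) of the genes tested, and genes of like brightness were not compared.

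A value that misses the threshold does not show that a receptor was constant, and the intervals give the range of differences compatible with the data. For Nr1h3, the oxysterol receptor, the 95% interval of the HFD-microbiota effect against PBS was -11.3 to 11.9%, and for Rxra -8.66 to 16.6%. For Nr1h4, the bile acid receptor, it was -6.08 to 23.5%, and for Ppara -12.9 to 20.8%. It was wider for Hnf4a, from -19.8 to 32.5%, and widest for Pparg, from -26.8 to 42.9%.

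**Figure D3:**
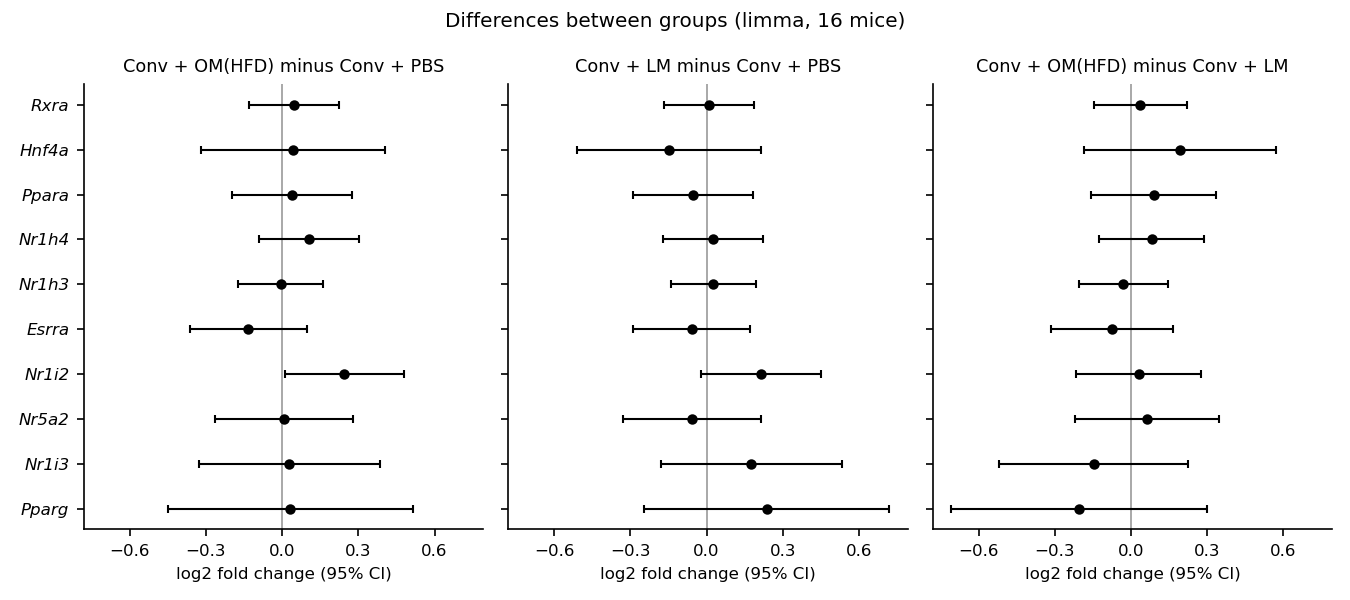
Log2 fold change of each receptor (points) with its 95% confidence interval (bars) from limma on 16 mice, for Conv + OM(HFD) minus Conv + PBS (left), Conv + LM minus Conv + PBS (middle) and Conv + OM(HFD) minus Conv + LM mice (right). Nr1i2 in the left panel, at 0.24, is the interval that lies wholly on one side of 0, and the intervals of Pparg and Hnf4a are the widest.

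Pparg was read from a single usable probe, at chr6:115440213-115440272. Conv + PBS mice ranged from 0.20 to 1.28, with a median of 1.06. Conv + LM mice read 1.05, 0.81, 1.71, 1.16 and 0.80, and Conv + OM(HFD) mice 1.21, 1.27, 0.94, 0.53 and 0.54. Each group held high and low mice, and 2 Conv + PBS mice (0.20 and 0.42) were below every other mouse. The summed level of the adipose markers Plin1, Lep, Fabp4 and Cfd was 9.78 times the 75th percentile in the Conv + LM mouse with the highest Pparg and 2.57 to 5.43 in the other 15 mice, and its part in the Pparg value was not tested. Adipoq and Retn did not pass the filter. A further Pparg probe, at chr6:115413557-115413616 and designed on another record, was well above background on 0 of the 16 arrays.

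For 7 receptors a second probe allowed the first to be checked mouse by mouse. Nr1i3, Ppara and Hnf4a had probes that followed the same mice closely. The deviations from the group means correlated with r = 0.85 for Nr1i3 (rho = 0.88), 0.84 for Ppara (rho = 0.85) and 0.79 for Hnf4a (rho = 0.74) over 16 mice, with permutation p-values adjusted over the 7 receptors of 0.00143, 0.00126 and 0.00187 for r and 0.00063, 0.00115 and 0.00544 for rho. Without the 2 mice farthest from the median, r was 0.67, 0.78 and 0.69. Within slides it was 0.88 and 0.79 for Nr1i3, 0.91 and 0.81 for Ppara, and 0.59 and 0.92 for Hnf4a.

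The Hnf4a probes agreed in this way although the zinc-finger probe shown above was dimmer by 6.87 on the log2 scale, or 117-fold. The start-codon probe of Nr1i3 was dimmer by 2.44, or 5.44-fold, and Nr1i3 values that set mice apart stood out at both probes. At the brighter probe they were 2.41 to 2.90 in Conv + PBS mice (median 2.58), 2.77, 2.52, 3.03, 3.07 and 2.65 in Conv + LM mice and 2.07, 3.10, 2.80, 2.53 and 2.81 in Conv + OM(HFD) mice. The lowest and the highest of all 16 mice were both Conv + OM(HFD) mice, and they were also the lowest (-0.37) and the highest (0.72) at the second probe.

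The probes of Nr1h3 (r = 0.46, adjusted permutation p = 0.306), Rxra (r = 0.36, adjusted permutation p = 0.340), Nr1h4 (r = -0.02) and Esrra (r = -0.28, adjusted permutation p = 0.425) did not pass. For comparison, the 2 brightest probes of the 6785 genes with several usable probes had a median r of 0.35 and a median gap of 2.13. The Nr1h3 probes lie only 185 bases apart, and the spread among mice of that gene was the smallest of all 10, 0.11 at both probes. The second probes of Nr1h4 and Esrra were designed on records other than RefSeq mRNAs, with gaps of 4.61 and 4.21 to the first. The fold changes of both probes had the same sign in 3 of 3 comparisons for Nr1i3, Ppara and Hnf4a, in 2 for Nr1h3, in 1 for Nr1h4 and Esrra, and in 0 for Rxra. With the HFD-microbiota, Esrra was -0.13 ± 0.11 (SE) at the first probe and 0.14 ± 0.13 at the second (limma adjusted p = 0.9999 for both).

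**Figure D4:**
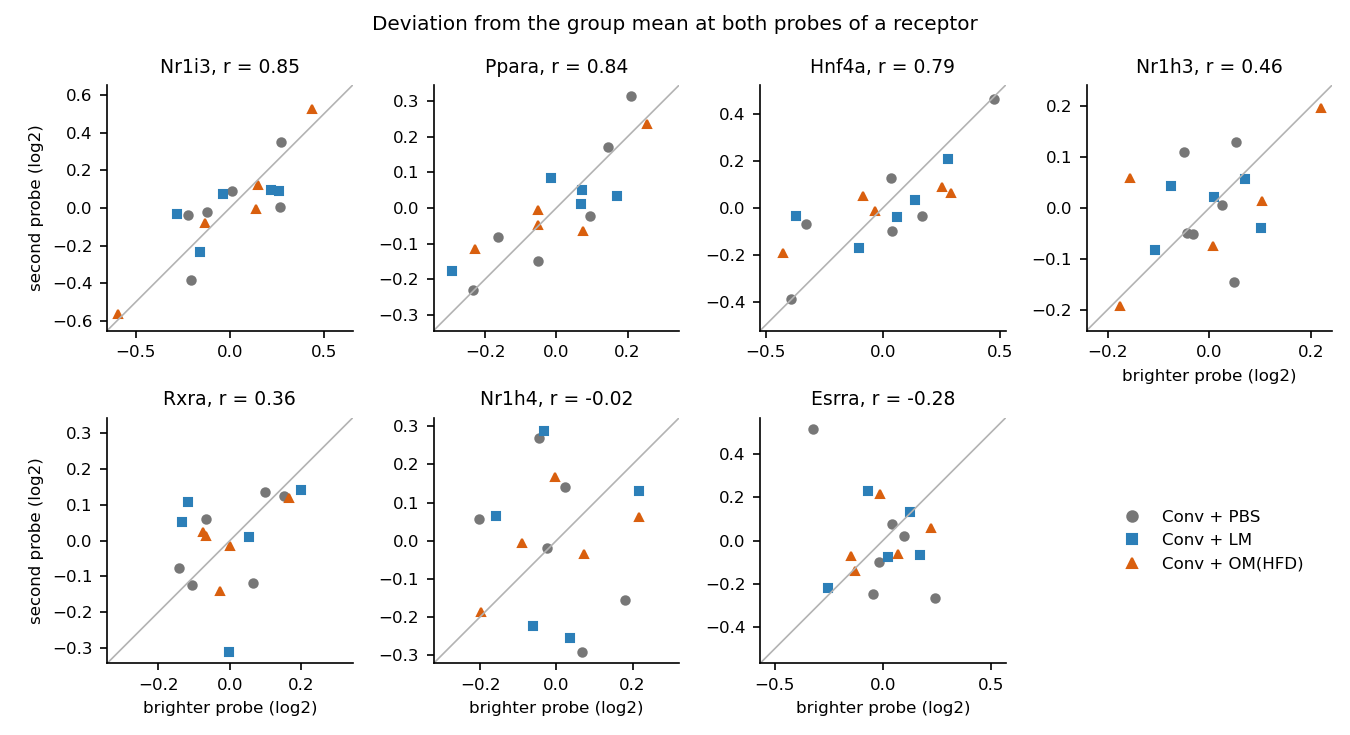
Deviation from the group mean at the brighter probe (x axis, log2) and at the second probe (y axis, log2) of the 7 receptors with a pair of usable probes, 1 point per mouse, with Pearson's r above each panel. The grey line marks equal deviations. Points follow the line for Nr1i3, Ppara and Hnf4a and scatter around 0 for Nr1h4 and Esrra.

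Hnf4a was bright, differed among mice and had probes that followed each other, so the mice themselves were compared. Conv + PBS mice ranged from 7.11 to 7.98, with a median of 7.55. Conv + LM mice read 6.99, 7.25, 7.49, 7.42 and 7.64, and Conv + OM(HFD) mice 7.12, 7.47, 7.52, 7.80 and 7.84. Every group thus held low and high mice, and the groups overlapped over most of their range. Ppara behaved alike on a smaller scale, from 6.14 to 6.58 in Conv + PBS mice (median 6.40), at 6.31, 6.03, 6.49, 6.39 and 6.39 in Conv + LM mice and at 6.18, 6.49, 6.36, 6.36 and 6.67 in Conv + OM(HFD) mice.

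This spread ran with genes of the circadian clock, the oscillator that times liver metabolism over the day. A clock score was formed as the mean of Arntl, Clock, Nfil3 and Cry1 minus the mean of Dbp, Tef, Per3, Nr1d1, Nr1d2 and Ciart, which peak at another time of day. Both sets are textbook clock genes, chosen after the data were seen, and Npas2 did not pass the filter. The score ranged from -2.74 to -0.68 in Conv + PBS mice, from -2.91 to -0.69 in Conv + LM mice and between -2.89 and -0.18 with the HFD-microbiota, with means of -1.89, -1.98 and -1.65. The groups thus covered much the same range.

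Hnf4a rose with this score, with r = 0.93 and rho = 0.96 over deviations from the group means of 16 mice (permutation p = 1e-05 for each, the smallest the permutations can give, and 1e-04 adjusted over the 10 receptors). Without the 2 mice farthest from the median r was 0.90, and it was 0.93 on each slide, 0.91 after quantile normalization and 0.89 in the authors' processed values. The score took up 86.5% of the variance of Hnf4a within groups, more than in 99.9% of genes, whose median was 10.6%. With the score removed, the SD of Hnf4a fell from 0.29 to 0.11, and its percentile among all genes from 61.7 to 8.74. Among single clock genes, r with Hnf4a was 0.95 for Arntl (BMAL1), which heads the activating arm of the clock, and -0.91 for Dbp, one of its output genes.

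Ppara followed in the same direction, with r = 0.79 (permutation p = 0.00158, adjusted 0.0079) and rho = 0.72 (permutation p = 0.00504, adjusted 0.0252). Without the 2 mice farthest from the median r was 0.79, on the slides 0.86 and 0.61, after quantile normalization 0.67 and in the authors' values 0.68. The score took up 61.9% of its variance. No other receptor passed after adjustment: Pparg had r = -0.60 (adjusted permutation p = 0.071), Nr1h4 -0.56 and Nr1i2 0.52 (adjusted permutation p = 0.11 for both). Rxra (0.11), Nr1i3 (0.02) and Esrra (-0.08) had values near 0. After quantile normalization and in the authors' values, r for Nr1h4 was -0.70 and -0.65, sizes near those of Ppara. For Pparg it was then -0.62 and -0.60, and for Nr1i2 0.45 and 0.47. No permutation p was computed in those settings. Within each group the clock score rose nearly in the order of the mouse numbers. It went from -2.74 to -0.68 over Conv + PBS mice 1 to 6, and from -2.91 to -0.69 over Conv + LM mice 13 to 17. Over Conv + OM(HFD) mice 25 to 30 it went from -2.89 to -0.18, and Hnf4a rose in nearly the same order. The permutations took the mice of a group as exchangeable and do not allow for such an order. The labels do not say what the mouse numbers stand for. The time of sacrifice of each mouse is not given in the sources used here, and its part in these relations was not tested. The mean of the 500 brightest genes also moved with Ppara (r = 0.77), Hnf4a (0.75), Rxra (0.67) and Nr1i2 (0.58). The part of array scaling was not tested beyond the settings given here.

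**Figure D5:**
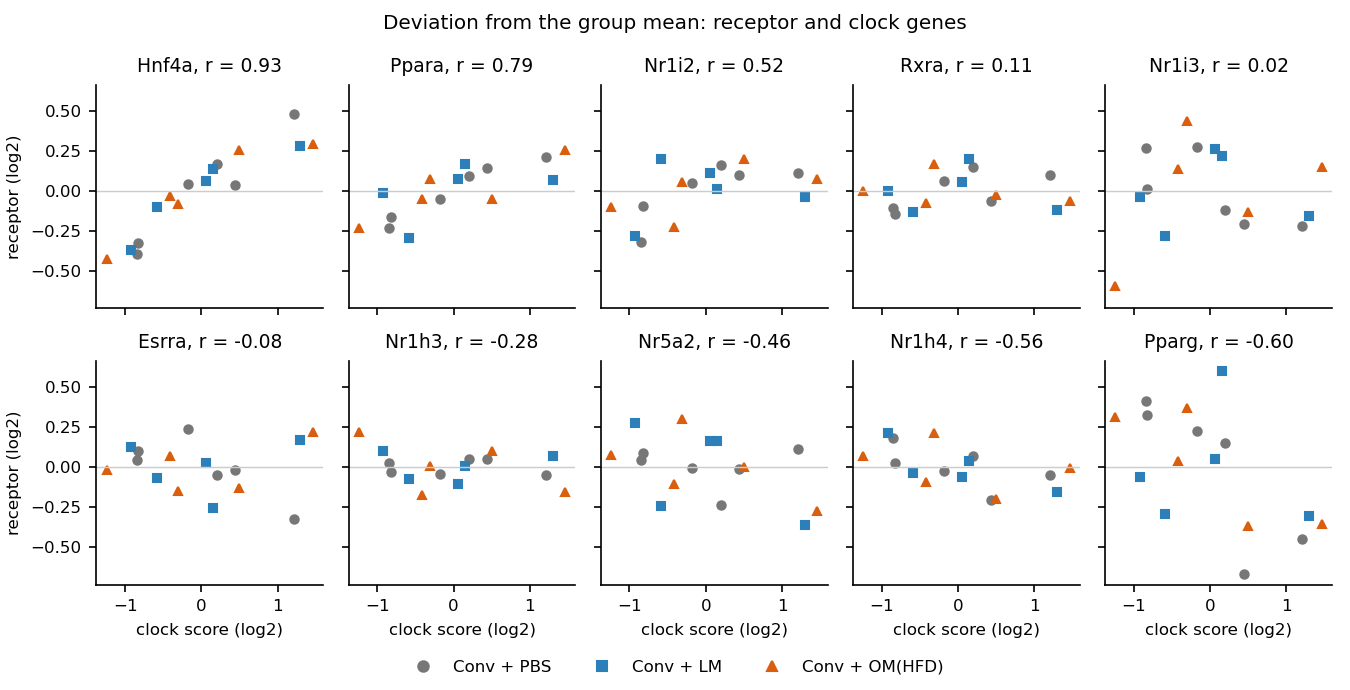
Deviation from the group mean of each receptor (y axis, log2) against that of the clock score (x axis, log2; genes of one phase minus genes of another), 1 point per mouse, with Pearson's r above each panel. Mice of all 3 groups lie along one rising line for Hnf4a, less closely for Ppara, and no line is seen for Nr1i3 or Esrra.

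With the clock score as a covariate, chosen after the data were seen, no group difference of the receptors passed after adjustment. Nr1i2 was 0.22 above the Conv + PBS mean in both transferred groups, each past an unadjusted limma p of 0.05 but not after adjustment (adjusted p = 0.9999 with the HFD-microbiota and adjusted p = 0.953 with the lean microbiota). The Hnf4a difference from Conv + PBS mice was -0.03 with the HFD-microbiota and -0.12 with the lean microbiota, and neither passed at an unadjusted p.

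A receptor's mRNA need not follow its activity, so each receptor except Rxra, which had no target list, was set against the mean of its target genes. Deviations from the group means of 16 mice were used again. Of 9 such relations, that of Ppara with its 18 targets had r = 0.73 (permutation p = 0.00435, adjusted over the 9 relations 0.0391) and rho = 0.66 (permutation p = 0.013, adjusted 0.117). It was 0.72 without the 2 mice farthest from the median, 0.79 and 0.56 on the slides, 0.61 after quantile normalization and 0.59 in the authors' values. The target mean itself moved with the clock score (r = 0.95), and with the score removed from both, r between Ppara and its targets was -0.07 (permutation p = 0.784). Hnf4a had r = 0.94 with the same PPARα targets (rho = 0.93, permutation p = 3e-05 and 4e-05, adjusted over all 90 pairs of a receptor and a target list 0.00135 and 0.0018).

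Hnf4a and its own 14 targets had r = 0.60 (permutation p = 0.0266, adjusted 0.120; rho = 0.57, adjusted permutation p = 0.141), which fell to 0.17 after quantile normalization and to 0.10 in the authors' values. The remaining 7 receptors had r between -0.33 (Nr5a2) and 0.42 (Nr1i2) with their own targets, and none passed. Of the 90 pairs, 4 passed for r and 2 of them also for rho. These 2 were Hnf4a with the targets of PPARα and with those of ERRα (r = 0.93, rho = 0.92), lists that share Acadm and Pdk4. Ppara had r = -0.83 with the FXR targets (adjusted permutation p = 0.009) and 0.79 with the ERRα targets (adjusted permutation p = 0.0421), without passing for rho. The means of the ERRα targets (r = 0.94) and of the FXR targets (r = -0.68) also moved with the clock score. These 4 relations were not recomputed with the score removed.

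The target lists were also compared between groups, and whether they read out the activity of the receptors was not tested. Among the 8 PXR targets tested, 1 passed at an unadjusted limma p in each transferred group, where 3.27% of all genes passed with the HFD-microbiota and 3.95% with the lean microbiota: Abcb1a, which encodes a drug efflux pump of the cell membrane. It was -0.97 ± 0.37 (SD) in Conv + PBS, -1.38 ± 0.22 in Conv + LM and -1.44 ± 0.22 in Conv + OM(HFD) mice. Its change was -0.48 ± 0.17 (SE) with the HFD-microbiota (limma p = 0.0127, adjusted p = 0.9999; exact permutation p = 0.0346) and -0.41 ± 0.17 with the lean microbiota (limma p = 0.0270, adjusted p = 0.997; exact permutation p = 0.0584). Cyp3a11, the standard PXR target among the cytochromes P450, was at 6.65 ± 0.16, 6.58 ± 0.39 and 6.61 ± 0.23 in the same order and did not pass.

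Of the 10 CAR targets tested, none passed at that p, and Cyp2b10, the standard CAR target, varied widely within groups, from -1.58 to 1.74 in Conv + PBS mice alone. None of the 8 FXR targets passed either. Nr0b2, which encodes the corepressor-like receptor SHP, was at -0.49 ± 0.67 in Conv + PBS, -0.39 ± 0.56 in Conv + LM and -0.88 ± 0.45 in Conv + OM(HFD) mice. Among 5 bile acid genes that FXR and SHP repress, 1 was higher and 4 were lower with the HFD-microbiota than with the lean microbiota (median -0.18), and 1 passed at an unadjusted limma p, as 2.71% of all genes did. The gene that passed was the one that ran against the rest of the list: Slc10a1, the bile acid uptake carrier of hepatocytes, was higher by 0.17 ± 0.08 (SE) with the HFD-microbiota than with the lean microbiota (limma p = 0.0492, adjusted p = 0.9995; exact permutation p = 0.0317), while after quantile normalization no gene of this list was higher by more than 0.04, and in the authors' values by more than 0.03. Against PBS, 4 of the 5 had higher values in each transferred group (median 0.19 with the HFD-microbiota and 0.37 with the lean microbiota), and none passed. Cyp8b1, which sets the share of cholic acid, was at 0.74 ± 0.46, 1.13 ± 0.52 and 0.95 ± 0.68 and did not pass.

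Of 10 LXR targets, 2 were higher and 8 lower with the HFD-microbiota than with PBS, with a median of -0.11 against 0.00 for all genes. With the lean microbiota vs. PBS 4 were higher and 6 lower (median -0.10 against -0.01 for all genes), and between the transferred groups 5 and 5 (median 0.00 against 0.01). None passed at an unadjusted p in any of these comparisons. Abca1, the cholesterol exporter, was at 2.92 ± 0.22, 3.01 ± 0.08 and 2.91 ± 0.18. Of 8 tested targets of PPARγ none passed, and Cidec, a lipid droplet protein, was at 0.94 ± 0.51, 1.40 ± 0.998 and 1.56 ± 0.94.

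All 18 PPARα targets were tested and none passed in any comparison, but their signs ran one way between the transferred groups. With the HFD-microbiota 18 of 18 were higher than with the lean microbiota, by a median of 0.14, while 52.6% of all genes were higher, by a median of 0.01. The largest difference was that of Cyp4a14, a fatty acid hydroxylase, at 1.02 ± 0.98 (SE; limma adjusted p = 0.9995). Its level was 2.34 ± 1.24 (SD) in Conv + OM(HFD), 1.32 ± 1.56 in Conv + LM and 1.27 ± 2.06 in Conv + PBS mice. Against Conv + PBS mice, 15 of 18 were higher with the HFD-microbiota (median 0.06), against 49.8% of all genes, and 4 of 18 with the lean microbiota (median -0.05), against 45.9%. The counts against PBS depended on the setting. With the HFD-microbiota, 9 of 18 were higher with the clock score as a covariate (median 0.0081), 11 on slide 1 alone (median 0.05), 17 on slide 2 alone (median 0.20) and 12 both after quantile normalization and in the authors' values. With the lean microbiota, 4 of 18 were higher with the clock score as a covariate, but 0 on slide 1 alone (median -0.34) and 14 on slide 2 alone (median 0.07). These genes vary together from mouse to mouse, so their signs are not separate observations. With the clock score as a covariate the count between the transferred groups was 13 of 18 (median 0.05). On slide 1 alone it was 18 of 18 (median 0.36), on slide 2 alone 14 of 18 (median 0.06) and in the authors' values 14 of 18.

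Of the 14 HNF4α targets, Gys2, the liver glycogen synthase, was lower by 0.21 ± 0.08 (SE) in Conv + LM than in Conv + PBS mice (limma p = 0.0184, adjusted p = 0.997; exact permutation p = 0.0195). Apoc3, a standard target, was at 9.41 ± 0.10, 9.37 ± 0.15 and 9.39 ± 0.17 in the 3 groups, named in the same order as above. None of the 8 LRH-1 targets and none of the 12 ERRα targets tested passed, and Idh3a, a subunit of a citric acid cycle enzyme, was at 2.64 ± 0.15, 2.68 ± 0.07 and 2.61 ± 0.11.

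Outside the 10 receptors, 32 of 39 further nuclear receptors were tested, and 2, 2 and 1 of them passed at an unadjusted limma p in the 3 comparisons, as 3.27%, 3.95% and 2.71% of all genes did. Esrrb, a relative of ERRα, was dim and higher in both transferred groups, at -3.24 ± 0.31 (SD) in Conv + PBS, -2.66 ± 0.25 in Conv + LM and -2.70 ± 0.34 in Conv + OM(HFD) mice (limma p = 0.00519 and 0.00744, adjusted p = 0.997 and 0.9999; exact permutation p = 0.0152 and 0.0216). Thrb, the thyroid hormone receptor of the liver, was lower by 0.19 with the HFD-microbiota (limma p = 0.0486, adjusted p = 0.9999; exact permutation p = 0.0346). Nr4a2, an orphan receptor, was lower by 0.48 with the lean microbiota (limma p = 0.0287, adjusted p = 0.997; exact permutation p = 0.0606). Nr1h5, a relative of FXR, was lower by 0.37 with the HFD-microbiota than with the lean microbiota (limma p = 0.0291, adjusted p = 0.9995; exact permutation p = 0.0476). Both transferred groups are set against the same Conv + PBS mice, so a difference common to both is not an independent repeat.

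Among 18 coactivators and corepressors, 3, 1 and 1 passed at an unadjusted limma p in the 3 comparisons, against the same 3.27%, 3.95% and 2.71% of all genes. Tbl1xr1, part of the complex that exchanges corepressors, was at -0.60 ± 0.17 (SD) in Conv + PBS, -0.25 ± 0.15 in Conv + LM and -0.24 ± 0.18 in Conv + OM(HFD) mice (limma p = 0.00406 and 0.00357, adjusted p = 0.997 and 0.9999; exact permutation p = 0.0108 for both). Ncoa2, a coactivator, was lower by 0.26 with the HFD-microbiota (limma p = 0.0230, adjusted p = 0.9999; exact permutation p = 0.0563). Gps2, a corepressor subunit, was lower with the HFD-microbiota by 0.17 against PBS (limma p = 0.0399, adjusted p = 0.9999; exact permutation p = 0.0325) and by 0.19 against the lean microbiota (limma p = 0.0249, adjusted p = 0.9995; exact permutation p = 0.0159).

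Markers of other cells varied within groups, and some passed between groups at an unadjusted limma p, none of them after adjustment. At that p, 3.27% of all genes passed with the HFD-microbiota vs. PBS, 3.95% with the lean microbiota vs. PBS and 2.71% between the transferred groups. Of all genes, 49.8, 45.9 and 52.6% had higher values in these comparisons, in the same order. Markers of a cell type can vary together, so their signs are not separate observations. Kupffer cell markers (7 of 8 names with a usable probe, among them Clec4f and Adgre1) summed to 24.0 to 137 times the 75th percentile in Conv + PBS, 19.4 to 29.5 in Conv + LM and 22.1 to 62.2 in Conv + OM(HFD) mice. All 7 had lower values than with PBS in both transferred groups (median -0.14 with the HFD-microbiota and -0.51 with the lean microbiota) and higher values with the HFD-microbiota than with the lean microbiota (median 0.38), and in limma 0 of them passed at an unadjusted p. Stellate cell markers (6 of 6) summed to 47.1 to 64.6, 45.5 to 63.0 and 40.0 to 55.9 in the same order. With the HFD-microbiota 4 of the 6 were lower than with PBS (median -0.30) and 5 of the 6 lower than with the lean microbiota (median -0.25), and 2 and 1 of them passed at an unadjusted limma p, all lower.

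Endothelial markers (6 of 6) summed to 28.95 to 33.0, 21.5 to 31.0 and 19.2 to 32.5, and 1 was lower at an unadjusted limma p in each transferred group against PBS. Bile duct markers (6 of 6) summed to 4.36 to 8.24, 5.18 to 8.04 and 3.74 to 8.97, and lymphocyte markers (5 of 6) to 1.77 to 2.92, 1.95 to 2.52 and 2.005 to 2.98, each with 1 gene lower with the HFD-microbiota than with PBS. Of the pancreas markers (3 of 6), 1 was lower with the HFD-microbiota than with the lean microbiota, and their sums were 17.6 to 24.4, 11.4 to 31.0 and 12.1 to 21.6. Neutrophil markers (4 of 6) summed to 0.512 to 20.9, 0.498 to 1.03 and 0.451 to 19.7, while Ltf and Retnlg did not pass the filter. The 4 neutrophil markers all had higher values with the HFD-microbiota than with the lean microbiota (median 1.08) or PBS (median 0.18), and lower values with the lean microbiota than with PBS (median -0.77). No neutrophil or adipose marker passed at an unadjusted p, and the 4 adipose markers had a median difference of -0.94 between the transferred groups, all with lower values in the HFD-microbiota group. Against PBS all 4 were higher with the lean microbiota (median 0.45), and with the HFD-microbiota 1 was higher and 3 lower (median -0.14). The part of these cell types in the receptor values was not tested.

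For each receptor the gene with the most similar profile over the 16 mice, without regard to group, was found among 20334 genes. These were Ak6 for Hnf4a (r = 0.94), Ttc38 for Ppara (0.90), Shprh for Pparg (0.89), Traf3 for Nr1h3 (0.88), Wdr24 for Nr1h4 (0.86), Igdcc3 for Nr1i3 (0.84), Mb21d2 for Esrra (0.83) and Gtf2a2 for Nr5a2 (0.82). Rxra was nearest to a transcript named AK083375 on the array (0.85), and Nr1i2 to a dim transcript that the array names by its position on chromosome 13 (0.81). Each is the maximum over many genes and is given as a description only.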

How the data were processed

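Liver RNA of 16 mice was hybridized to Agilent SurePrint mouse gene expression arrays (probe positions on mm9). The authors extracted signals with Agilent Feature Extraction 10.10.1.1, and the deposited intensity values used here were background-corrected per array, with no normalization across arrays. The table of log2 values deposited by the authors ranked spots exactly as their median intensity does and had been quantile-normalized, as judged from its values. It served as an alternative. Its scale is log2, its genes were not centred, and its column medians were 5.49 to 5.52.

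Control and outlier spots were left out, spots of 1 probe averaged, and the 75th percentile of each array subtracted on the log2 scale. A probe was kept if 5 or more of the 16 arrays had it well above background, and the brightest probe stood for a gene. Groups were compared with limma 3.58.1 (R 4.3.3) in a single fit of all 3 groups, with Benjamini-Hochberg adjustment over 20411 genes, and by exact two-sided permutation over mice, whose smallest p is 0.00216 for 5 against 6 mice and 0.00794 for 5 against 5. Confidence intervals are 95%. Relations across mice used deviations from group means and 100000 two-sided permutations within groups. The replicates are separate recipient mice. By the study's methods the caecal content of several donors was pooled for each group, so the recipients do not replicate the donors. On simulated data for 20411 genes, with 200 genes raised by 1 (log2) in Conv + OM(HFD) mice only, limma recovered 150 (75%) with 7 false calls against PBS and 147 (73.5%) with 5 false calls against the lean microbiota, and called 0 genes where none had been changed. The largest receptor difference between groups was 0.24, and recovery of changes of that size was not simulated.

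The receptors, the gene lists and the tests were chosen with earlier results of these data known. The genes named are the receptors, the up to 3 genes of each list with the smallest unadjusted limma p under 0.05 in each comparison, 9 standard targets, and for each receptor the gene with the highest r. One gene that met this rule is not reported here. Clock genes were added after the data were seen. The alternatives were normexp background correction (offset 50), quantile normalization, the authors' values, other filters on dim probes, slide as a block or 1 slide alone, only the mice compared, array weights, averaging the probes of a gene, testing each probe singly, the unpaired test named in the study's methods, leaving out each mouse, and the clock score as a covariate. Gene symbols were checked against RefSeq genes of GRCm38.p6, which held all 10 receptors. Figures were drawn with matplotlib 3.10.9.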

Additional observations from a re-analysis of the deposited data

Results flagged for a closer look

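Within groups, 3 of 51 sets of values (17 probes in 3 groups) held a mouse far from the others by Dixon's 95% criterion, where chance gives about 1 in 20. The second Ppara probe read 4.43 in Conv + LM mouse 14, and 4.62 to 4.69 in the other 4 mice of the group. The same mouse was also the lowest at the first Ppara probe (6.03). The second Rxra probe, the dim one, read -1.11 in Conv + LM mouse 13, and -0.79 to -0.66 in the other 4. Nr5a2 read 2.65 in Conv + PBS mouse 4, and 2.88 to 3.003 in the other 5.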

How the results depend on the processing

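No alternative brought a receptor under an adjusted p of 0.05 in limma (smallest 0.822), and 32 of 390 fold changes recomputed without leaving out single mice changed sign, with new values between -0.12 and 0.06. Nr1i2 with the HFD-microbiota vs. PBS was 0.14 to 0.39 in 13 settings and kept an unadjusted p under 0.05 in 10, with 0 receptors passing with no filter on dim probes, on slide 1 only and on slide 2 only. With the lean microbiota vs. PBS, 1 receptor (Nr1i2) passed after quantile normalization and with the clock score as a covariate. The number of all genes at that p moved to 439 on slide 2 only for the HFD-microbiota vs. PBS, and between the transferred groups to 878 with slide as a block, 1063 on slide 1 only and 839 with every probe on its own.

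Sign changes for the HFD-microbiota vs. PBS gave -0.0038 (Nr5a2) and -0.022 (Pparg) with array weights, 0.030 (Nr1h3) and -0.0076 (Ppara) in the authors' values, -0.032 (Hnf4a), 0.0034 (Nr1h3) and -0.0023 (Ppara) with the clock score, 0.0023 (Esrra) with the mean of all probes, -0.0024 (Nr1i3), -0.0043 (Nr5a2) and -0.0044 (Ppara) with normexp, -0.098 (Nr1i3) and -0.12 (Nr5a2) on slide 1, 0.042 (Nr1h3) and -0.0044 (Pparg) on slide 2, and 0.0078 (Nr1h3) after quantile normalization. For the lean microbiota vs. PBS they gave 0.057 (Esrra) and -0.0073 (Rxra) with the mean of all probes, -0.0059 (Rxra) with normexp, -0.0094 (Nr1i3) and -0.0104 (Rxra) on slide 1, 0.030 (Esrra), -0.10 (Nr1h4) and 0.026 (Ppara) on slide 2, and -0.0019 (Rxra) with slide as a block. Between the transferred groups they gave -0.0054 (Nr1i2) with the clock score, -0.017 (Nr1h4), -0.013 (Nr1i2) and -0.055 (Nr5a2) on slide 1, 0.033 (Nr1h3) and -0.0018 (Ppara) on slide 2, and -0.0037 (Rxra) after quantile normalization. The causes were not tested.

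Leaving out 1 mouse at a time gave 569 to 863, 695 to 1024 and 487 to 801 genes at an unadjusted limma p under 0.05 in the 3 comparisons (HFD-microbiota vs. PBS, lean microbiota vs. PBS, HFD-microbiota vs. lean microbiota), and 0 to 1, 0 to 1 and 0 receptors. Of 480 fold changes, 41 changed sign. Those in the first comparison ranged from -0.035 to 0.15 (Hnf4a), -0.060 to 0.039 (Nr1h3), -0.080 to 0.18 (Nr1i3), -0.068 to 0.076 (Nr5a2), -0.027 to 0.094 (Ppara) and -0.10 to 0.12 (Pparg). In the second they ranged from -0.12 to 0.0037 (Esrra), -0.028 to 0.066 (Nr1h4), -0.13 to 0.034 (Nr5a2), -0.099 to 0.021 (Ppara) and -0.041 to 0.042 (Rxra), and in the third from -0.087 to 0.012 (Nr1h3), -0.041 to 0.087 (Nr1i2), -0.26 to 0.00070 (Nr1i3), -0.027 to 0.13 (Nr5a2) and -0.0047 to 0.087 (Rxra).

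With the clock score removed, r of a receptor with its targets turned to -0.17 (Nr1h3), -0.12 (Nr1h4), -0.068 (Ppara) and 0.25 (Pparg). The r of Nr1i3 with the clock score was -0.0094 in the authors' values and -0.023 after quantile normalization, and that of Rxra -0.29 and -0.36. The percentile of a receptor's spread moved by over 10 points in 20 of 40 cases. No paired analysis was possible because the groups share no mouse numbers.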
